A study of Mus musculus with 7 samples.

Results

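The genes described here are the actin nucleators of the Spire and formin families and the vesicle and motor genes that work with them in the mouse oocyte. A gene was a member if its symbol matched one of 10 listed symbols. Of the 10 symbols, 9 were found among the 26019 gene rows of the deposited table: Spire1, Spire2, Fmn1, Fmn2, Daam1, Diaph1, Diaph2, Rab11a and Myo5b. Diap1 had no row of its own and is a RefSeq synonym of Diaph1. RNA came from oocytes of secondary follicles of C57BL/6J mice, with 5 oocytes pooled in each library, and was sequenced by Smart-Seq2, which amplifies full-length cDNA from very small inputs. There were 4 wild-type libraries (WT 1 to WT 4) and 3 knockout libraries (KO 1 to KO 3), and no agent was given to either group. The labels disagree on the deleted gene: the series title and design name Mfn2-/-, while the genotype entry and a protocol name Mfn1. They also disagree on age (8 weeks in the protocol, P1 in the age entry) and on number, since 3 mice per group are stated and 4 WT libraries are listed. Neither the promoter of any Cre nor the deleted exons are named in the labels. Since no label ties a library to a mouse, every p-value reflects just the spread among these libraries, which may be technical.

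Actin nucleators start new actin filaments from monomers. SPIRE proteins gather monomers through tandem actin-binding WH2 domains, formins add monomers at the growing barbed end, and in mouse oocytes SPIRE1, SPIRE2 and FMN2 together build a mesh of cytoplasmic filaments that is known for positioning the meiotic spindle and for polar body extrusion. These nucleators sit on vesicles marked by the small GTPase RAB11A, and the motor myosin Vb, encoded by Myo5b, moves the vesicles along the filaments they make.

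Values are the authors' normalised read counts, obtained by dividing each library's gene counts by its size factor. The recovered totals were 6676076 to 8343915 reads per library. Mfn2 lay between 15.0 and 35.3 in WT and between 4.55 and 7.66 in KO libraries (log2 fold change -1.94, adjusted p = 0.00571), whereas Mfn1 had WT and KO means of 289 ± 36.3 (SD, n = 4) and 330.3 ± 19.9 (SD, n = 3) and was not called (adjusted p = 0.499). All 16 oocyte markers had reads, and their summed level was 210288 to 287775 in WT and 247687 to 410480 in KO, with Zp3, a zona pellucida gene, the highest. Of these, 2 were called higher in KO, the germ cell RNA-binding genes Ddx4 (log2 fold change 1.26, adjusted p = 0.00287) and Dazl (0.40, adjusted p = 0.0393), and none was called lower. All 16 granulosa cell markers had reads too, with sums of 3075 to 4178 in WT and 3754 to 5155 in KO that came mostly from Serpine2. Of these markers, 10 were above every WT library in both KO 2 and KO 3, and 4 were above every WT library in KO 1. Inha, an inhibin subunit of granulosa cells, was 11.9 to 66.7 in WT, 54.5 in KO 1, 394.6 in KO 2 and 338.0 in KO 3. The mean log2 level of the granulosa markers was 2.57 to 3.62 in WT, 3.71 in KO 1, 4.72 in KO 2 and 4.55 in KO 3, so KO 2 and KO 3 stood apart. None of the 16 was called higher in KO, and Cyp19a1 was called lower. KO 2 and KO 3 also lay apart over all tested genes. On the first principal component, the axis of largest variation (34% of it), they were at 73.6 and 60.5. KO 1 was at 16.6 there and the WT libraries at -49.4 to -30.8. The summed level of the 8 macrophage and leukocyte markers in the table, of 10 listed, was 543 to 578 in WT and 187 to 275 in KO. C1qb made up most of it and was the only one called (log2 fold change -1.31, adjusted p = 0.000124). WT and KO means were 12.4 and 18.4 for Cd68 and 8.18 and 3.28 for Csf1r. Adgre1, Lyz2, C1qa, Cd3e and Cd79a were at most 3.74 in any library. The 6 theca and stroma markers in the table, of 12 listed and with Star the highest, summed to 15.0 to 29.8 in WT and 12.7 to 23.6 in KO. For 5 of 7 endothelial markers, with Pecam1 the highest, the sums were 193 to 228 and 168 to 228, and the erythrocyte gene Hba-a2 was at most 2.13 in WT and 0 in KO. The part of other cells in the results below was not tested. Values from a fit without KO 2 and KO 3, and from one with the granulosa mean as a covariate, are given beside the calls. The former leaves a KO arm of 1 library, KO 1, which is assumed to vary as the WT libraries do. A call lost there says little, so the size of the change is given with it. The covariate of the latter was higher in every KO library than in every WT library (at least 3.71 against at most 3.62). That fit cannot well separate the covariate from the group, so a call lost there also says little. For Mfn2 the log2 fold change was -1.77 in the former fit and -1.6 in the latter (adjusted p = 0.783).

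The comparison of KO with WT asks which of these genes differ in RNA level in oocytes of the mutant. Among the 9 members, Myo5b rose and Spire1 fell, and the other 7 did not pass the test. A gene was called when its Benjamini-Hochberg adjusted p from limma, computed on log2(value + 1) over 19227 genes, was under 0.05. Over all tested genes 6.71% were called, 3.09% higher and 3.63% lower in KO, against 1 member higher and 1 lower of 9. In 4 members the KO libraries did not overlap the WT libraries, with Myo5b and Diaph2 above and Spire1 and Fmn2 below, and 19.2% of all tested genes showed no overlap. Unadjusted p was under 0.05 for 6 members and for 21.8% of all tested genes. The members' median log2 fold change was 0.05, beside -0.01 over all tested genes, and their median absolute change was 0.47, beside 0.32. Because these are bulk libraries on a relative scale, fewer cells of a type and less RNA per cell cannot be told apart.

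**Figure D1:**
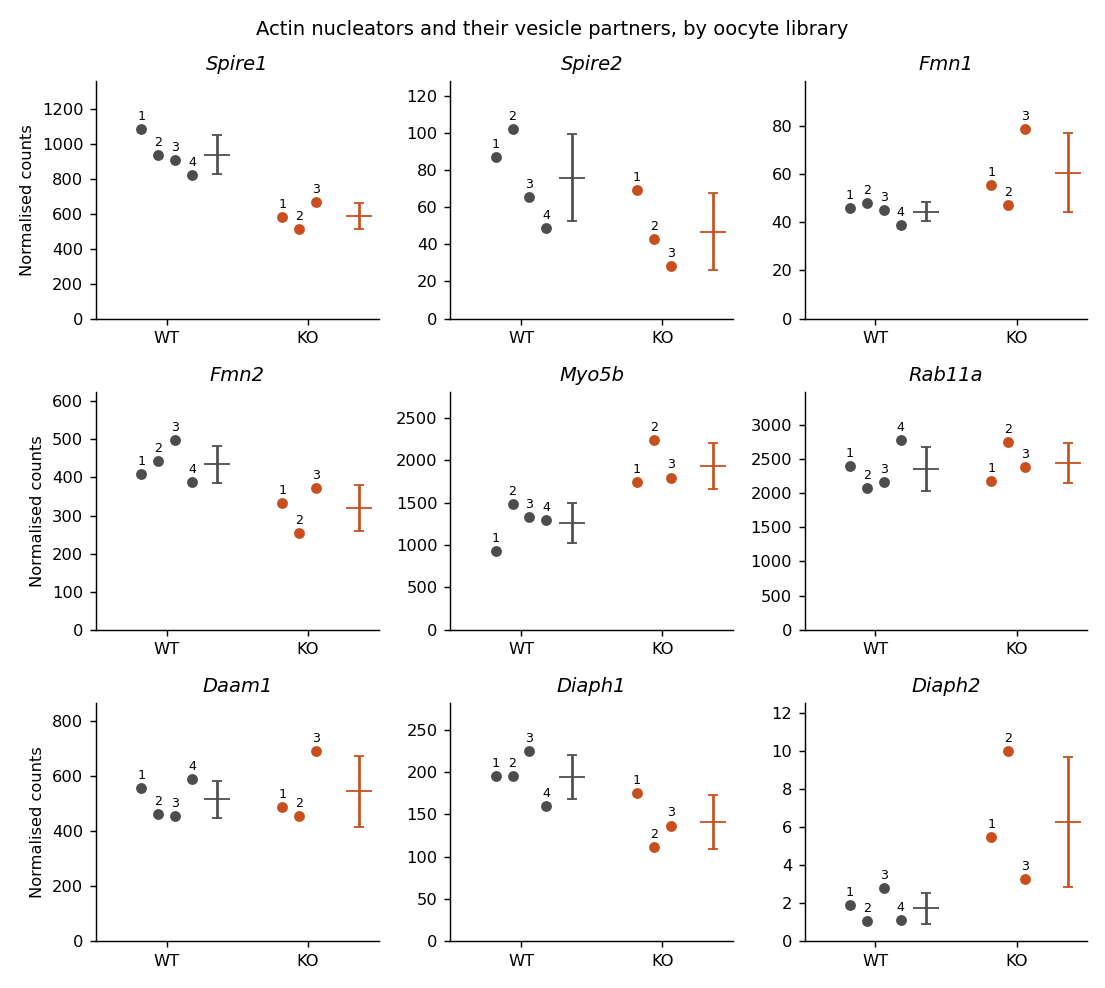
Normalised read count (linear axes from 0, one scale per panel) of each of the 9 members in every library. Points are libraries, numbered as in the labels (WT, n = 4; KO, n = 3), and the bar beside each group is the mean ± SD; the groups do not overlap for Spire1, Fmn2, Myo5b and Diaph2.

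Spire1 (ENSMUSG00000024533.16; GRCm38 chromosome 18, 67488209 to 67610790, minus strand) was the more abundant Spire gene. Its normalised read counts were 1089.7, 940.5, 907 and 825 in WT 1 to WT 4 and 581, 516 and 667 in KO 1 to KO 3. Every KO library was below every WT library. The WT mean was 940.5 ± 111 (SD, n = 4) and the KO mean 588 ± 75.7 (SD, n = 3). Spire1 was thus 1.60-fold lower in KO on the log2(value + 1) scale (log2 fold change -0.68, SE 0.14, 95% interval -0.97 to -0.38, adjusted p = 0.00684). It was called in all 7 fits that left out 1 library, with adjusted p between 0.00395 and 0.0387. Without KO 2 and KO 3 together the log2 fold change was -0.69 and the adjusted p 0.0764, and adding the granulosa mean as a covariate gave -0.79 and 0.563. The call was also lost in limma without its trend and robust options (adjusted p = 0.113), as was that of Mfn2 (adjusted p = 0.058).

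Spire2 (ENSMUSG00000010154.7; chromosome 8, 123332713 to 123369515, plus strand), which encodes the second Spire nucleator, had counts of 86.8, 102, 65.4 and 48.7 in WT and 69.0, 42.7 and 28.4 in KO. KO 2 and KO 3 were below all WT libraries, while KO 1 lay inside their range. The means were 75.8 ± 23.5 (SD, n = 4) and 46.7 ± 20.6 (SD, n = 3). The log2 fold change of -0.72 (SE 0.30, 95% interval -1.36 to -0.09) was as large as that of Spire1 but its standard error was larger, and the adjusted p was 0.166. Without KO 1 it was -1.04 with an adjusted p of 0.0400, and it was -0.08 without KO 2 and KO 3 together.

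Fmn2 (ENSMUSG00000028354.13; chromosome 1, 174501825 to 174822729, plus strand) encodes the formin that partners with SPIRE in the oocyte. Its counts were 408, 444, 499 and 388 in WT and 332, 254 and 372 in KO. The KO libraries were all below the WT libraries, although KO 3 and WT 4 were close. With means of 435 ± 48.8 (SD, n = 4) and 319 ± 60.1 (SD, n = 3), the log2 fold change was -0.46 (SE 0.16, 95% interval -0.80 to -0.12). Its unadjusted p was 0.0106, the adjusted p of 0.0966 missed the threshold, and no fit that left out 1 library called it (adjusted p 0.0506 to 0.363). The genes whose pattern over the 7 libraries was nearest to that of Fmn2, by the root mean square difference of centred log2 values among 6578 genes with a mean of at least 100, were Lsm14b (0.0608), Mrpl52 (0.0694) and Nsd1 (0.0795). The median over the compared genes was 0.367. None of these 3 genes was called (adjusted p 0.175, 0.166 and 0.0975), which follows largely from their choice by likeness to Fmn2.

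Fmn1 (ENSMUSG00000044042.18; chromosome 2, 113327736 to 113716767, plus strand), a formin best known from limb development and cell junctions, was scarcer than Fmn2. It was at 45.8, 47.9, 44.9 and 39.0 in WT and 55.4, 47.3 and 78.8 in KO. KO 2 lay inside the WT range and KO 3 was the highest library. The log2 fold change was 0.41 (SE 0.25, 95% interval -0.12 to 0.94, adjusted p = 0.373). Of its 75-base exon stretches, 2.00% also occur in Gm13966, so a small part of its count is uncertain.

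Daam1 (ENSMUSG00000034574.10; chromosome 12, 71831078 to 71992333, plus strand) encodes a formin that acts downstream of Wnt and Dishevelled. Counts were 554, 460.1, 452 and 588 in WT and 485, 454 and 690.3 in KO. The groups overlapped, and KO 3 was the highest library of either group. The log2 fold change was 0.06 (SE 0.16, adjusted p = 0.864), with an interval from -0.28 to 0.40, and it was -0.12 without KO 3.

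DIAPH1 and DIAPH2 are the diaphanous formins, which elongate unbranched filaments. Diaph1 (ENSMUSG00000024456.16; chromosome 18, 37843601 to 37935476, minus strand) had counts of 195, 196, 225 and 160.3 in WT and 175, 112 and 137 in KO. KO 2 and KO 3 were the lowest libraries, and KO 1 lay among the WT libraries. The means of 194 ± 26.6 (SD, n = 4) and 141 ± 32.0 (SD, n = 3) gave a log2 fold change of -0.47 (SE 0.19, 95% interval -0.87 to -0.07) and an adjusted p of 0.154. That change was -0.14 without KO 2 and KO 3 together. These libraries also had the higher granulosa marker levels, and whether the gene's level is linked to that was not tested.

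Diaph2 (ENSMUSG00000034480.18; chromosome X, 129749742 to 130465834, plus strand) was near the detection limit. It had 2, 1, 3 and 1 recovered reads in WT and 6, 11 and 3 in KO, and its exons span 11553 bases. The normalised values of KO were all above those of WT, but the lowest KO value was 3.28 (KO 3) and the highest WT value 2.80 (WT 3). Summed over libraries and scaled by the size factors, the KO to WT ratio was 3.65, with an exact 95% interval of 1.48 to 10.2 that covers counting error only. In limma the log2 fold change was 1.36 (SE 0.57) with an adjusted p of 0.161, and DESeq2 gave no adjusted p for so few reads.

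Rab11a (ENSMUSG00000004771.12; chromosome 9, 64715299 to 64737758, minus strand), the GTPase that marks the nucleator-bearing vesicles, was the most abundant member. Its counts were 2393, 2078, 2158 and 2783 in WT and 2174, 2755 and 2388 in KO. All 3 KO libraries lay inside the WT range. The means of 2353 ± 316 (SD, n = 4) and 2439 ± 294 (SD, n = 3) gave a log2 fold change of 0.05 (SE 0.13, adjusted p = 0.858). Its 95% interval of -0.22 to 0.33 corresponds to KO levels between 0.858 and 1.26 times those of WT. Gm47308 shares 1.03% of its 75-base exon stretches.

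Myo5b (ENSMUSG00000025885.18; chromosome 18, 74440936 to 74771493, plus strand), which encodes the vesicle motor, changed in the opposite direction to Spire1. It had counts of 925, 1488, 1325 and 1297 in WT and 1749.7, 2244 and 1797 in KO. Every KO library was above every WT library, and WT 1 was the lowest of all. From means of 1259 ± 238 (SD, n = 4) and 1930.3 ± 272 (SD, n = 3), Myo5b was 1.55-fold higher in KO (log2 fold change 0.63, SE 0.15, 95% interval 0.31 to 0.95, adjusted p = 0.0182). The call was lost without WT 1 (log2 fold change 0.49, adjusted p = 0.0655) and without KO 2 (0.52, adjusted p = 0.0896). It was also lost without KO 2 and KO 3 together (0.50, adjusted p = 0.380), with the granulosa covariate (0.85, adjusted p = 0.546) and in limma without trend and robust options (adjusted p = 0.182).

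**Figure D2:**
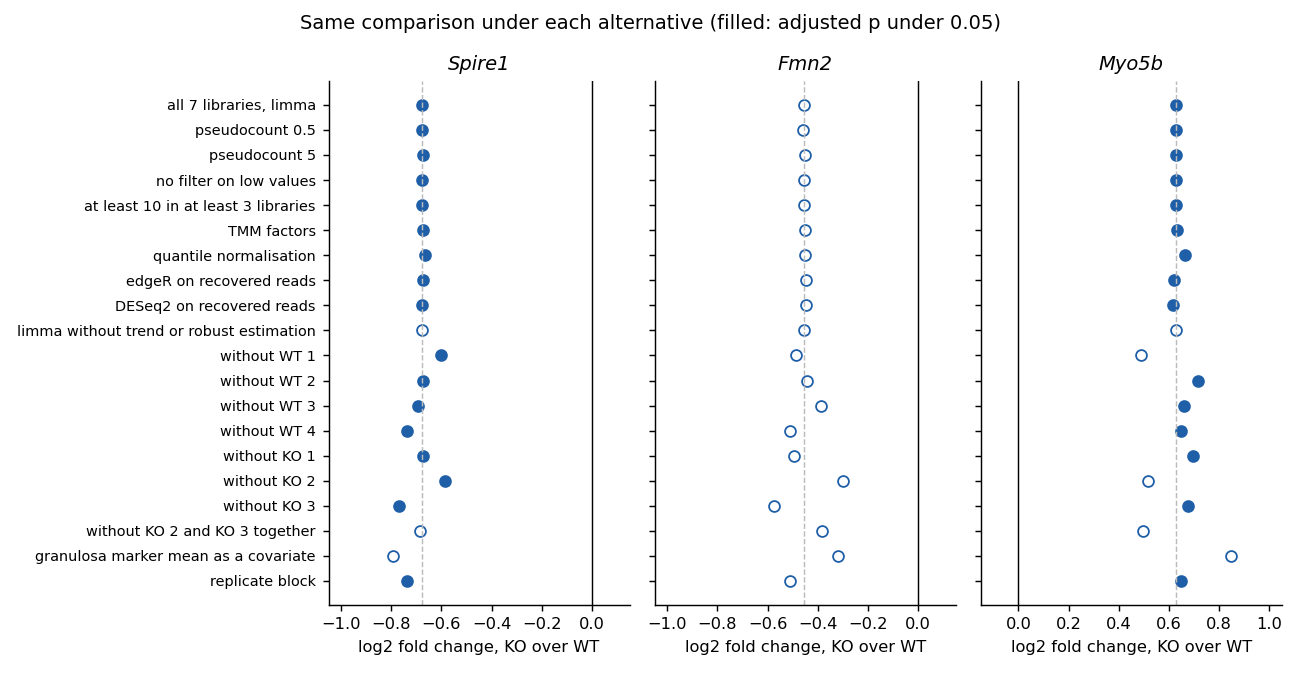
Log2 fold change of KO over WT for Spire1, Fmn2 and Myo5b with all 7 libraries (top, and dashed line) and under each processing alternative below it; filled points have an adjusted p under 0.05. Spire1 and Fmn2 are below 0 and Myo5b above 0 in every fit, and Fmn2 has no filled point.

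Spire1, Myo5b and Diaph1 all lie on chromosome 18, where 3 of the 9 members are found. No member shared exon bases with another of the 23756 gene rows matched to the GENCODE M21 annotation. Rows without a match were not checked.

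Levels can be compared between genes only per length, so counts were divided by the kilobases of each gene's merged exons. In WT the order was Rab11a at 786 ± 106 normalised counts per kilobase (SD, n = 4), Myo5b at 129 ± 24.4, Spire1 at 121 ± 14.2, Daam1 at 63.4 ± 8.37 and Fmn2 at 54.6 ± 6.13. Below these came Diaph1 at 30.6 ± 4.19, Spire2 at 30.2 ± 9.37, Fmn1 at 2.88 ± 0.248 and Diaph2 at 0.148 ± 0.0715. Myo5b and Spire1, Daam1 and Fmn2, and Diaph1 and Spire2 were neighbours whose WT libraries overlapped, so their order is not resolved. The other neighbours did not overlap in WT. The KO means followed the same order, with 815 ± 98.1 for Rab11a (SD, n = 3) and 198 ± 27.9 for Myo5b. Next came 75.8 ± 9.75 for Spire1, 67.1 ± 15.9 for Daam1 and 40.1 ± 7.55 for Fmn2. The KO libraries of Spire1 (66.5 to 85.9) and Daam1 (56.0 to 85.3) overlapped. Those of Diaph1 (17.6 to 27.7) and Spire2 (11.3 to 27.5) did too, so the order within these pairs is not resolved in KO. By the mean per kilobase over all libraries, Rab11a was at the 96.2 percentile of the 17722 tested genes with a length. Diaph2 was at the 3.01 percentile, and genes too low to test were not ranked.

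**Figure D3:**
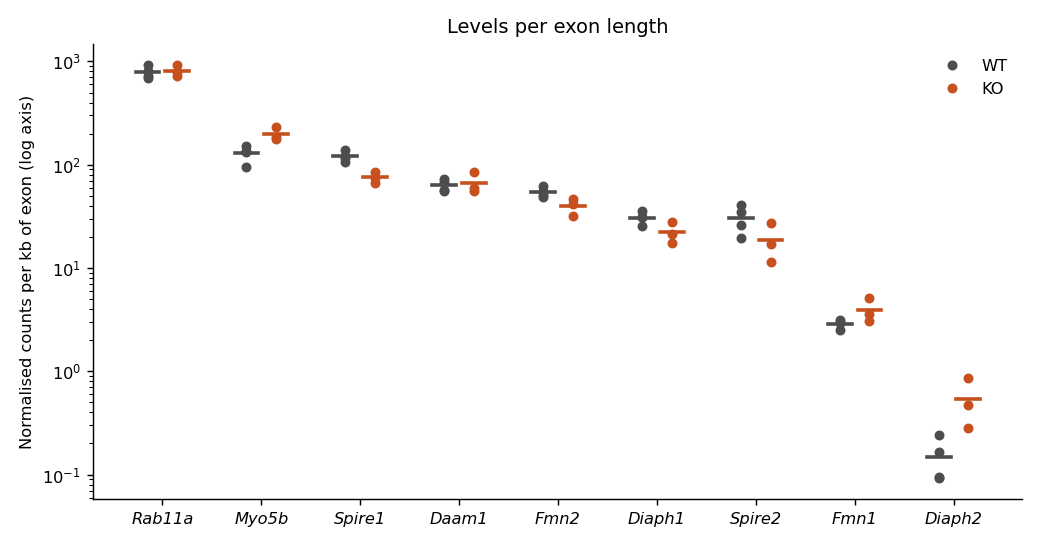
Normalised read count per kilobase of exon for the 9 members, on a log axis. Points are libraries, with WT and KO side by side, and short lines are group means; the genes run from Rab11a, at a WT mean of 786, to Diaph2, at 0.148.

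Within single libraries, the per-kilobase level of Spire1 was 1.86 to 2.74 times that of Fmn2 in WT and 1.80 to 2.09 times in KO, and these ranges overlapped. Spire1 was 2.97 to 5.47 times as high as Spire2 in WT and 2.72 to 7.58 times in KO. Those ranges overlapped too. The ratio of Myo5b to Spire1 was 0.675 to 1.26 in WT and 2.14 to 3.46 in KO, with no overlap. Myo5b was 0.118 to 0.219 times as high as Rab11a in WT and 0.231 to 0.250 times in KO. These ratios restate the members' own values and were not tested.

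The wider actin machinery was described with 8 lists that together had 104 tested genes, members included. Of these, 7 rose and 4 fell, so 10.6% were called, beside 6.71% of all tested genes. Unadjusted p was under 0.05 for 3 of 15 vesicle and myosin V genes, 5 of 11 formins and 3 of 7 tandem WH2 and other nucleators. The counts were 0 of 10 for Arp2/3 subunits and 3 of 12 for activators of Arp2/3 and their partners. They were 7 of 15 for actin and monomer binding, 3 of 20 for capping, bundling and tropomyosin, and 5 of 15 for other myosins. Over all tested genes the share was 21.8%. The members were part of these lists, and nothing particular to the lists follows from the shares. The called genes other than members were 9, and these, like Spire1 and Myo5b, lost the call without KO 2 and KO 3 together, with the granulosa covariate, and in limma without trend and robust options. With the covariate the log2 fold change was -1.18 for Lmod3, -1.14 for Myh14, 0.72 for Washc4, 0.71 for Rab11b and 0.59 for Washc3. It was -0.475 for Rab11fip1, 0.38 for Actb, 0.32 for Fmnl2 and 0.30 for Myl12b. Against the fit without the covariate, the change was further from 0 for Lmod3 and Myh14 and nearer to 0 for the others. With KO 1 as the only KO library it was -1.08 for Myh14, -0.96 for Lmod3, 0.58 for Fmnl2, 0.52 for Rab11b, -0.515 for Rab11fip1, 0.49 for Washc3, 0.45 for Washc4, 0.35 for Actb and 0.235 for Myl12b. All 9 had the same direction in both fits as with all libraries. Each of the 9 also lost the call when at least 1 single library was left out, as given below.

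Of 15 genes of RAB11 vesicle and myosin V transport, 2 rose (Myo5b and Rab11b), 1 fell (Rab11fip1) and 12 were not called, with a median log2 fold change of 0.06 beside -0.01 over all tested genes. Rab11b, the close relative of Rab11a, was 334, 423, 322 and 468 in WT and 549, 1129 and 568 in KO. The KO libraries were all higher, and KO 2 was far above the others (log2 fold change 0.89, SE 0.24, adjusted p = 0.0423). Leaving out any library but WT 4 or KO 1 ended the call (highest adjusted p 0.116), as did edgeR (adjusted p = 0.0501), and 11.9% of its exon stretches occur in other genes, which makes its count uncertain. Rab11fip1, which encodes a RAB11-binding adaptor of recycling vesicles, was 186, 226, 193 and 152 in WT and 131, 98.2 and 65.6 in KO. Its KO libraries were all lower (log2 fold change -0.98, SE 0.22, adjusted p = 0.0108). The adjusted p was 0.0511 without KO 3, and 4.19% of its exon bases overlap 4933416M07Rik in a library that does not mark strand.

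Of 15 formin genes, 11 were tested, and 1 rose and none fell, with a median log2 fold change of 0.14. Daam2, Fmnl1, Fhdc1 and Grid2ip were too low to test. The called gene was Fmnl2, a formin of the cell cortex and protrusions, at 86.8, 68.2, 109 and 70.4 in WT and 124, 145 and 161 in KO. All KO libraries were higher (log2 fold change 0.79, SE 0.22, adjusted p = 0.0317), and leaving out any library but WT 3 or KO 1 ended the call (highest adjusted p 0.0986). None of the 5 formins among the members was called.

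Of 7 tandem WH2 and other nucleators, 2 fell, Spire1 and Lmod3, and 5 were not called. The median log2 fold change was -0.68, which is the value of Spire1 itself, beside -0.01 over all tested genes. Lmod3, a leiomodin known from muscle thin filaments, was 61.0, 49.0, 50.5 and 36.8 in WT and 24.5, 19.1 and 23.0 in KO. The KO libraries were all lower (log2 fold change -1.10, SE 0.28, adjusted p = 0.0238), and leaving out KO 2 or any WT library but WT 4 ended the call (highest adjusted p 0.0809).

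The Arp2/3 complex, which nucleates branched filaments, had 10 tested subunits. None was called by limma, and 0 had an unadjusted p under 0.05, with a median log2 fold change of -0.02. Its most abundant subunits were Arpc5l, at a WT mean of 3789 ± 170.2 (SD, n = 4) and a KO mean of 3304 ± 360.5 (SD, n = 3), and Arpc3, at 2018 ± 478 and 1680.4 ± 299, and both overlapped between groups. Of 12 listed activators of the complex and subunits or partners of activators, 2 rose and 10 were not called. These were the WASH complex subunits Washc3, at 139 ± 11.5 and 215 ± 20.1 (log2 fold change 0.62, adjusted p = 0.0359), and Washc4, at 83.0 ± 11.1 and 139.9 ± 24.4 (0.74, adjusted p = 0.0362). Their KO libraries lay above all WT libraries. Leaving out any library but KO 1 ended the Washc3 call (highest adjusted p 0.0990), and leaving out any but KO 1 or WT 4 ended that of Washc4 (highest adjusted p 0.116).

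Of 15 actin and monomer-binding genes, 1 rose and 14 were not called, with a median log2 fold change of 0.23. Actb, the cytoplasmic beta-actin gene, was 479.5, 477, 426 and 532 in WT and 607, 1238 and 1060.0 in KO. All KO libraries were higher, KO 1 by the least and KO 2 and KO 3 by more (log2 fold change 0.96, SE 0.19, adjusted p = 0.00800). KO 2 and KO 3 also had the higher granulosa markers, and whether the Actb level is linked to that was not tested. Without KO 3 the adjusted p was 0.0590. None of 20 genes for filament capping, bundling and tropomyosin was called by limma, 3 had an unadjusted p under 0.05 (21.8% of all tested genes did), and the median was 0.16. Their most abundant gene was Rdx, which links actin to the membrane, at 16533 ± 2571 (SD, n = 4) and 21988 ± 3675 (SD, n = 3) with an adjusted p of 0.0747. Capza2, a capping protein subunit, was 1249 ± 132 and 1293 ± 102.

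Of 15 genes of other myosins, 1 rose, 1 fell and 13 were not called, with a median of 0.17. Myl12b, a regulatory light chain of myosin II, had means of 327 ± 21.03 (SD, n = 4) and 534 ± 137 (SD, n = 3), with a log2 fold change of 0.67 and an adjusted p of 0.0217. Myh14, a heavy chain of non-muscle myosin II, was 70.3 ± 2.27 and 36.9 ± 4.11 (log2 fold change -0.92, adjusted p = 0.0237). Neither gene overlapped between groups. Myl12b was matched to no gene model, and 18.5% of the 75-base exon stretches of the more abundant Myl12a (3948 ± 226 in WT) also occur in Myl12b or Myom1, which makes the Myl12b count uncertain. For Myl12b the call ended on leaving out WT 1, WT 3, KO 2 or KO 3 (highest adjusted p 0.119), and for Myh14 on leaving out any WT library but WT 4 (highest adjusted p 0.0651).

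**Figure D4:**
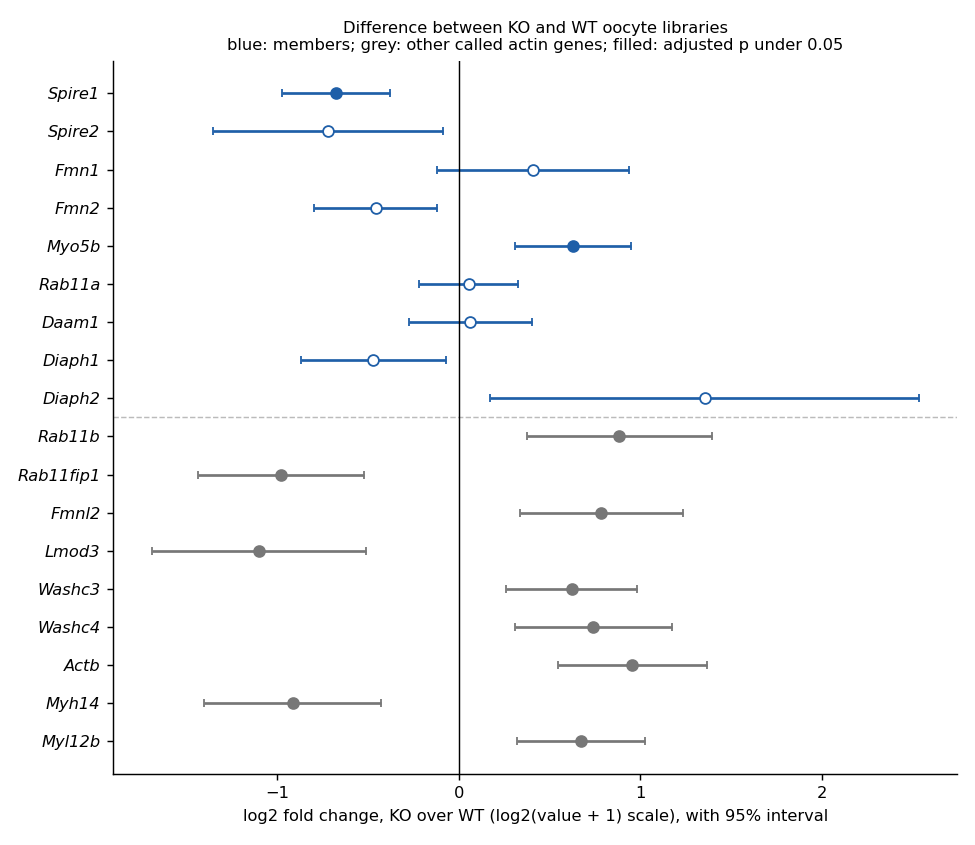
Log2 fold change of KO over WT on the log2(value + 1) scale, with limma estimates as points and 95% intervals as bars, for the 9 members (blue) and the 9 other called actin genes (grey); filled points are called. Among the members only Spire1, at -0.68, and Myo5b, at 0.63, are filled.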

How the data were processed

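The signal values in the deposited table are the authors' read counts per gene after division by a library's own size factor (0.914 to 1.10). Division by the step of low values gave whole reads, within 0.05, for 100% of values up to 1000 reads and for 99.96% or more of the whole set, in every library. Cutadapt, FastQC, STAR, DESeq2 and DESeq, with build GRCm38 (mm10), are named per the submitters' processing notes. The step that assigned reads to genes is not named there. Of 26019 rows, 23756 matched GENCODE M21 by name and start, and no row lies on the mitochondrial chromosome. Lengths and identifiers come from that annotation.

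The test was limma 3.58.1 (R 4.3.3, trend and robust estimation) on log2(value + 1), for genes that reached 1 in 3 or more libraries, with Benjamini-Hochberg adjustment. A fold change on this scale understates that of low genes. edgeR 4.0.16 on the recovered reads called 1334 genes and DESeq2 1.42.0 called 1474. Other alternatives were pseudocounts, filters, scalings, libraries left out, a granulosa covariate and a replicate block. The text names each member, Mfn1 and Mfn2, the called genes of each list or otherwise its 2 most abundant, the highest markers and the 3 genes nearest to Fmn2. One further gene list is not reported here. The members and lists were chosen with earlier results of these data known.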

Additional observations from a re-analysis of the deposited data

How the results depend on the processing

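Against 1291 genes called, limma without trend and robust estimation called 106, leaving out KO 2 and KO 3 together left 130, and the granulosa covariate left 1, although 1177 genes then had an unadjusted p under 0.05. These 3 fits called 0 members. Leaving out 1 library gave 604 to 1772 genes and 1 to 3 members. The genes were 754 without WT 1, 732 without WT 2, 611 without WT 3 and 922 without WT 4. They were 1772 without KO 1, 604 without KO 2 and 835 without KO 3. All these fits have fewer samples, yet the fit without KO 1 called more genes than that with all libraries. Spire1 and Myo5b kept their direction in every fit. Rab11a was -0.105 on the log2 scale without KO 2 and KO 3 and -0.179 with the covariate, and -0.0369 to 0.138 when 1 library was left out. Daam1 was -0.0729 and -0.11 in the former fits and -0.121 to 0.181 in the latter. The cause was not tested. Pseudocounts of 0.5 and 5, filters, TMM and quantile scaling, edgeR and DESeq2 called Spire1 and Myo5b and no other member. Diaph2 was not tested under the filter of 10.

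With the replicate block, 1022 genes and 2 members were called, and Fmnl2 (adjusted p = 0.0818), Washc3 (0.105) and Myh14 (0.0580) were not called. As a check, each gene's group mean was subtracted from its log2 values, for tested genes with a mean of at least 50. These deviations correlated at -0.293, 0.129 and 0.014 between same-numbered libraries. Not every library correlated best with its own number. Deviations within a group sum to 0 for each gene, so a mix of signs is built in. With so few libraries this check cannot exclude a shared mouse or day, so whether the numbers pair the samples is not known. Few reads limit Diaph2, and 3 KO libraries limit all intervals.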
